A study of Homo sapiens with 6 samples.

Results

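The histone cluster genes are the genes for the linker histone H1 and the core histones H2A, H2B, H3 and H4 that lie in clusters on chromosomes 6 and 1 and as a single gene on chromosome 12. Members were taken by gene symbol, as every row of the deposited count tables whose name starts with HIST and a cluster number from 1 to 4, followed by H; the rule uses no measured value. This gave 71 of 19940 rows, comprising 6 H1, 17 H2A, 18 H2B, 15 H3 and 15 H4 genes, of which 55 belong to the HIST1 cluster, 12 to HIST2, 3 to HIST3 and 1 to HIST4. Of these, 56 passed the filter on low counts and were tested among 18208 genes, and the other 15 had at most 18 counts in any library.

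The cells were U2OS, a human osteosarcoma line, carrying a stable GFP-DCP1A transgene that was kept under G418 selection in all groups; DCP1A is an activator of mRNA decapping. Total RNA was sequenced after removal of ribosomal RNA from 3 groups of 2 libraries each. Rescue cells were held in medium with 300 mM sodium for 4 h and then returned to medium with 150 mM sodium for 4 h, hypertonic cells were held at 300 mM sodium for 4 h, and isotonic cells were kept in a mock-supplemented medium with 150 mM sodium. The comparison asks how transcript levels change under osmotic stress and after its removal. Separate cultures are not stated for the 2 libraries of a group, and p-values therefore measure only how these libraries vary, perhaps for technical reasons alone. Rescue cells were harvested after a further 4 h with no isotonic group of that age, so recovery and later harvest cannot be told apart.

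Total counts per library lay between 90196278 and 105991428, and histone cluster genes took 0.377% and 0.355% of them in rescue 1 and 2, 0.447% and 0.751% in hypertonic 1 and 2, and 0.753% and 0.432% in isotonic 1 and 2. CPM is a gene's count relative to its library's total. The library labelled hypertonic 2 resembled isotonic 1, and hypertonic 1 resembled isotonic 2, more than either resembled the other library of its own group. Over the 53 members with at least 100 counts in all, the log2 ratio of CPM had an SD of 0.17 between hypertonic 2 and isotonic 1, 0.12 between hypertonic 1 and isotonic 2, 0.13 between rescue 1 and rescue 2, 0.55 between hypertonic 1 and 2, and 0.55 between isotonic 1 and 2. All pairs of libraries differed by more than counting noise, with a chi-square per degree of freedom of at least 5.50 over all genes. The labels were kept as given. Each comparison of rescue is therefore also given against the mean of the hypertonic and isotonic groups. That value stays the same if the 2 group labels are exchanged as a whole. Its fold change, SE and adjusted p still depend on which of those 4 libraries are grouped together. DCP1A, endogenous and transgenic reads together, stood at 527 and 505 CPM in rescue, 764 and 916 CPM in hypertonic, and 927 and 785 CPM in isotonic libraries. Rescue libraries also listed fewer rows at 0, with 690 and 699 in rescue against 1248 and 1653 in hypertonic and 1627 and 1270 in isotonic libraries. The summed level of 386 olfactory receptor rows was 116 and 125 CPM in rescue, 41.0 and 58.0 CPM in hypertonic, and 61.1 and 41.4 CPM in isotonic libraries, and the part of such a background in the results was not tested. Of the osteoblast lineage markers, SPARC was at 687 to 744 CPM, COL1A1 at 828 to 1175 CPM and RUNX2 at 17.2 to 77.7 CPM, whereas COL1A2 was at no more than 0.174 CPM, BGLAP at no more than 1.09 CPM and ALPL at no more than 2.82 CPM.

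Nucleosomes wrap DNA around an octamer of H2A, H2B, H3 and H4, and H1 binds the linker DNA between them. Most of these genes lack introns and are transcribed in S phase, when NPAT, phosphorylated by cyclin E and CDK2, switches them on in nuclear histone locus bodies. Their mRNAs end in a conserved stem-loop instead of a poly(A) tail; SLBP binds the stem-loop, and the U7 snRNP with the CPSF2, CPSF3 and SYMPK core cleaves the RNA downstream of it, so that the mRNAs accumulate during DNA synthesis and decay when it stops. In bulk RNA, fewer cells in S phase and less histone mRNA per cell cannot be told apart.

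The stem-loop is shown for members on which the results turn, with the stem and loop in capitals, from the transcript sequences of GENCODE release 29 on GRCh38, 5′ to 3′ on the sense strand.
HIST1H2BE: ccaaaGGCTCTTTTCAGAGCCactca
HIST1H2BC: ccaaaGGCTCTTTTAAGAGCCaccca
HIST1H2AC: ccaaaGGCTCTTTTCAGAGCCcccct
HIST2H2AA4: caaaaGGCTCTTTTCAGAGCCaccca
HIST2H3A: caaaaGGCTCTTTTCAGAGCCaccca
HIST1H3E: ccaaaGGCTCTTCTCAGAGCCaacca
HIST1H4B: ccaatGGCCCTTTTCAGGGCCgccca
HIST1H4E: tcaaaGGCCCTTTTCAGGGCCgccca
HIST2H4A: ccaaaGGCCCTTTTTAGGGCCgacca
The search, on the sense strand, asked for the histone stem-loop consensus with every base of the stem paired and found it in transcripts of 31 of the 71 members. They were 6 of 17 H2A, 11 of 18 H2B, 6 of 15 H3, 8 of 15 H4 and 0 of 6 H1 genes. The stem opened with GGCTCT in all 23 H2A, H2B and H3 matches and with GGCCCT in all 8 H4 matches. Many annotated models end at the stop codon, so the lack of a match says only that these letters are not in the annotated transcript.

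Promoters of 5 members are shown: 3 carry divergent pairs described below, HIST1H2BE was the one abundant member to rise, and HIST1H4B stands for the H4 promoters, which hold no octamer. They span 250 bases before to 50 bases after the transcript start, from RefSeq on GRCh38.p14, each on the strand of its gene. Capitals mark the octamer ATTTGCAT, which in human H2B promoters is bound by OCT1 (POU2F1), the CCAAT box and TATAAA, all searched on both strands.
HIST1H2BJ: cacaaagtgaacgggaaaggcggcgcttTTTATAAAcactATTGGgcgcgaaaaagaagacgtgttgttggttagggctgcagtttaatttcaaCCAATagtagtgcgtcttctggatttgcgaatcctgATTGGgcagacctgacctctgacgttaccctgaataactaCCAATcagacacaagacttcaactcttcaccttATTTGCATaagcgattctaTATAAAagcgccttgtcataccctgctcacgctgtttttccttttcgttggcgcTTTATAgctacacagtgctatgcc
HIST1H2AC: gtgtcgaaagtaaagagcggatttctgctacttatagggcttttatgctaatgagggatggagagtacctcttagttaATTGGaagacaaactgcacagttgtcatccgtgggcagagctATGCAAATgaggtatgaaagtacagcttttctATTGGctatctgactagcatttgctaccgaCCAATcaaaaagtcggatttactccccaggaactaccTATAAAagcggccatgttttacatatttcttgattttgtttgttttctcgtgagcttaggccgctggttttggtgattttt
HIST1H2BG: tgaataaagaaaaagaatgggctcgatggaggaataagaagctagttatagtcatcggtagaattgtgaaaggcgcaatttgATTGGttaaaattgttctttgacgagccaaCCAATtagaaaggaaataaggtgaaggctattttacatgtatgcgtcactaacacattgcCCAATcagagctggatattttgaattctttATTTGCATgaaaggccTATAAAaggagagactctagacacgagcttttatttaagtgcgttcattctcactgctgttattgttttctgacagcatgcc
HIST1H2BE: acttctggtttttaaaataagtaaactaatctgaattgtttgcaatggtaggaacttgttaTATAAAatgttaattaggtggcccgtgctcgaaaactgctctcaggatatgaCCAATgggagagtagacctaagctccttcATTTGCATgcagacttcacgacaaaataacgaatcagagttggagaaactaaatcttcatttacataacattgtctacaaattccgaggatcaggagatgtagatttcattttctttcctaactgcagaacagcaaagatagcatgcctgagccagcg
HIST1H4B: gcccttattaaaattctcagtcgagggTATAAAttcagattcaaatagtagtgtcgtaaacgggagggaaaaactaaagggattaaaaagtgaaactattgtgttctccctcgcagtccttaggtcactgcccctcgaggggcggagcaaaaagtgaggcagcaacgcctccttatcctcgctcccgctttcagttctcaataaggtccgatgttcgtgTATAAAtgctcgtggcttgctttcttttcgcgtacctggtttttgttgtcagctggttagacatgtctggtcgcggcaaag
They lie at chr6:27132746-27133045 (minus), chr6:26123922-26124221 (plus), chr6:26216639-26216938 (minus), chr6:26183511-26183810 (plus) and chr6:26027234-26027533 (minus). Of the 71 members, 61 had a promoter in the table. The octamer was in 11 of 14 H2A and 14 of 18 H2B promoters, in 1 of 10 H3, and in 0 of 6 H1 and 0 of 13 H4 promoters, against 1.77% of all 35116 promoters. The H3 entry is that of HIST1H3D, for which the table gives the same window as for HIST1H2AD. CCAAT was in all 48 H1, H2A, H2B and H3 promoters and in 3 of 13 H4 promoters, against 34.6% of all promoters. TATAAA was in 40 of the 61, against 11.5%. Of the promoters shown, only that of HIST1H2BJ has overlapping matches, of TATAAA with its reverse complement.

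Summed by class, the core histones were lowest in the rescue libraries. H2A summed to 743 and 697 CPM in rescue, 1039 and 1739 CPM in hypertonic, and 1762 and 1002 CPM in isotonic libraries. H2B summed to 921 and 859 CPM in rescue, 1196 and 1973 CPM in hypertonic, and 1972 and 1166 CPM in isotonic libraries. H3 summed to 364 and 341 CPM in rescue, 658 and 992 CPM in hypertonic, and 999 and 631 CPM in isotonic libraries. Both rescue libraries lay below all 4 others in these 3 classes. H4 summed to 768 and 732 CPM in rescue, 841 and 1401 CPM in hypertonic, and 1381 and 814 CPM in isotonic libraries, where the rescue libraries were again lowest but close to hypertonic 1 and isotonic 2. H1 summed to 974 and 926 CPM in rescue, 737 and 1408 CPM in hypertonic, and 1414 and 708 CPM in isotonic libraries, so that by library total rescue lay between the libraries of each other group. TMM-scaled, H1 summed to 853 and 803 CPM in rescue, 833 and 1436 CPM in hypertonic, and 1433 and 797 CPM in isotonic libraries, with rescue 2 below both hypertonic libraries. By library total, the rescue mean was lower than that of the other 4 libraries by 2.32-fold for H3, 1.92-fold for H2A, 1.77-fold for H2B and 1.48-fold for H4. For H1 the log2 ratio was -0.17 by library total and -0.44 TMM-scaled, and without hypertonic 2 or isotonic 1 it was 0.08 or 0.09 by library total. These sums carry no test, and with 2 libraries a group an exact permutation test could not pass the threshold of 0.05.

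**Figure D1:**
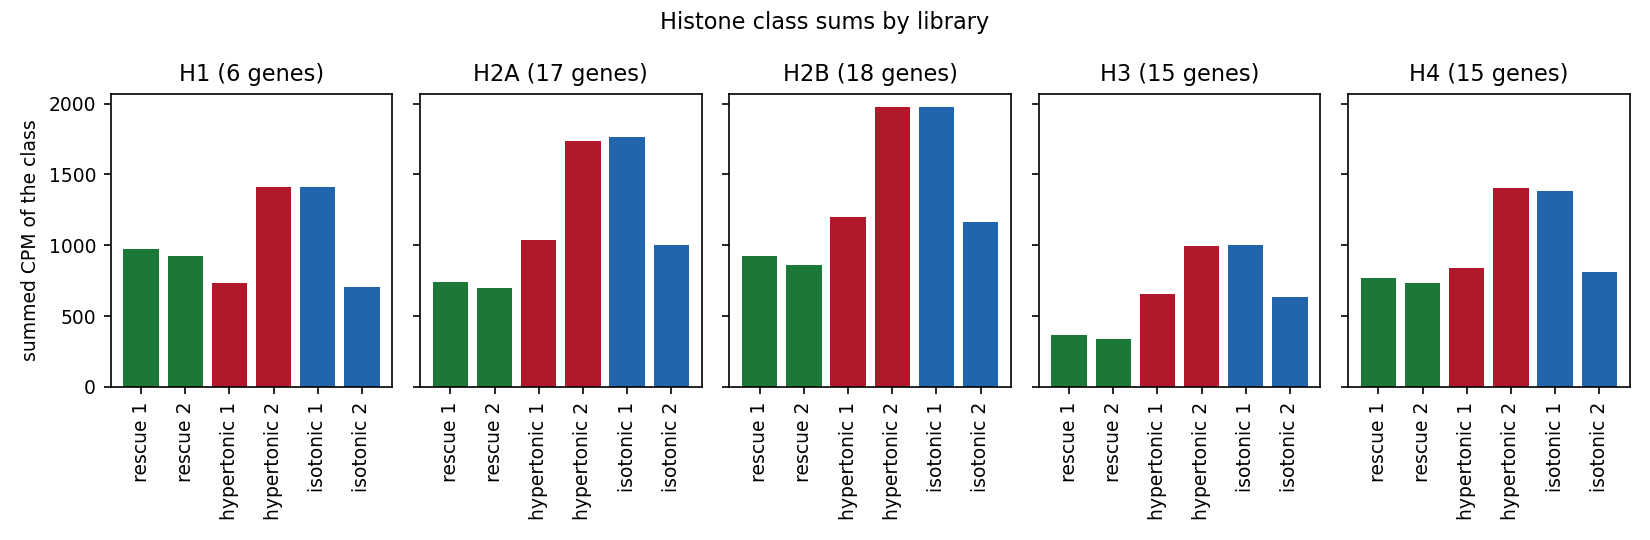
Summed CPM by library total of each histone class in each of the 6 libraries, rescue in green, hypertonic in red and isotonic in blue. In H2A, H2B, H3 and H4 both rescue bars are the lowest, while in H1 they stand between hypertonic 1 and isotonic 2 below and hypertonic 2 and isotonic 1 above.

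The make-up of the histone RNA differed as well. H1 genes took 25.8% and 26.0% of all histone cluster counts in rescue, 16.5% and 18.7% in hypertonic, and 18.8% and 16.4% in isotonic libraries. H3 genes took 9.67% and 9.60% in rescue, 14.7% and 13.2% in hypertonic, and 13.3% and 14.6% in isotonic libraries. H2A took 19.7% and 19.6% in rescue, 23.3% and 23.2% in hypertonic, and 23.4% and 23.2% in isotonic libraries. H2B took 24.4% and 24.2% in rescue, 26.8% and 26.3% in hypertonic, and 26.2% and 27.0% in isotonic libraries. H4 took 20.4% and 20.6% in rescue, 18.8% and 18.6% in hypertonic, and 18.3% and 18.8% in isotonic libraries. These shares do not depend on how libraries are scaled. In every class the rescue libraries lay outside the range of the other 4, higher for H1 and H4 and lower for H2A, H2B and H3.

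Gene by gene, rescue was compared with the other groups by edgeR's quasi-likelihood test on all genes, with TMM scaling and Benjamini-Hochberg adjustment. CPM values below are by library total, while fold changes are TMM-scaled, which lowers rescue further, since its TMM factors were 1.14 and 1.15 against 0.885 and 0.980 in hypertonic and 0.986 and 0.888 in isotonic libraries. Against the mean of hypertonic and isotonic, 19 of the 56 tested members fell and 7 rose, together 26, where 31.6% of all genes changed. That is 33.9% of tested members lower, against 17% of all genes, and 12.5% higher, against 14.6% of all genes. The median log2 fold change was -0.92 over the tested members and -0.02 over all tested genes. Against isotonic alone 15 members fell and 6 rose, where 13.5% of all genes fell, 9.61% rose and 23.1% did either. Against hypertonic alone 15 fell and 6 rose, where 13.8% of all genes fell, 9.86% rose and 23.6% did either. By CPM, both rescue libraries lay below all 4 others in 29 members, as in 21.8% of all genes, and above them in 12, as in 46.9% of all genes. The comparisons share the rescue libraries and are not independent. Without rescue 1 or without rescue 2, none of these calls remained, and no gene at all was called by edgeR in any comparison. The median log2 fold change of members against the mean was then -0.92 and -0.87, against -0.02 and -0.02 over all genes. On library totals alone, without TMM, 9 members fell and 7 rose against the mean, where 8.52% of all genes fell and 18.6% rose, and the median of all genes moved by 0.29.

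The falls were among the more abundant members. Of the 42 tested members with a mean of at least 5 CPM, 19 fell and 1 rose, which is 45.2% lower, where 23% of all genes at that level fell, and 2.38% higher, where 9.58% rose. Their median log2 fold change was -1.23, against -0.20 for all genes at that level. The 14 tested members below 5 CPM include some, such as HIST1H1D and HIST1H3C, that passed the filter on low counts only through their rescue libraries and could hardly fall. Nothing is therefore read from the number of them that rose. Of all 5053 tested genes below 5 CPM, 27.8% rose and 1.39% fell, with a median log2 fold change of 1.02. Rises of single scarce members given below stand against that shift of scarce genes in general. By class, 7 of 14 tested H2A, 5 of 11 H3, 4 of 12 H4, 3 of 14 H2B and 0 of 5 H1 genes fell. The H2A and H3 counts, and the 19 in all, include both copies of duplicated HIST2 genes described below, which are not separate observations. Those that rose were 2 H1, 2 H2B, 1 H2A, 1 H3 and 1 H4 gene, with HIST1H1D and HIST1H3C among them.

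**Figure D2:**
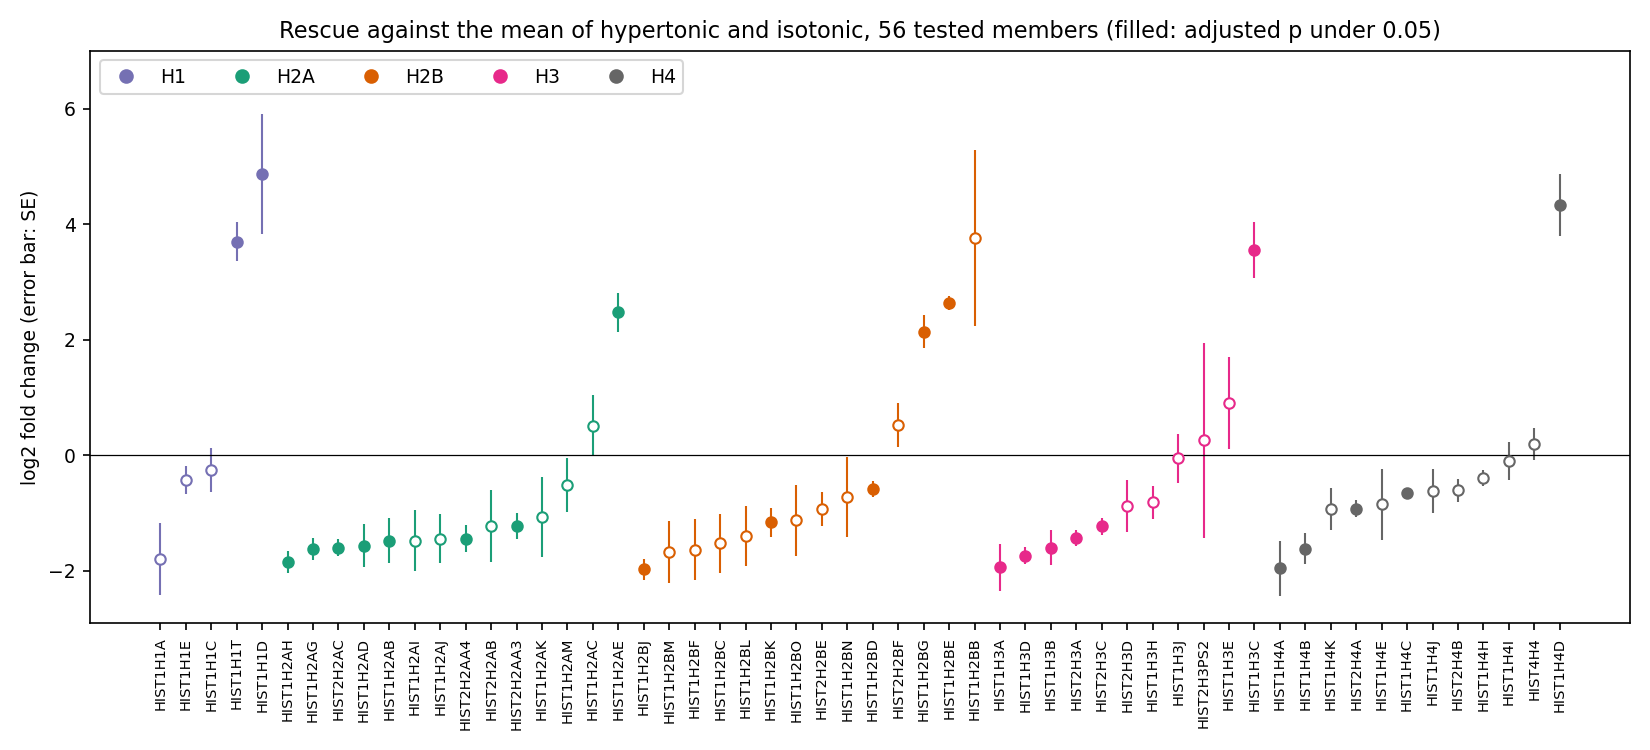
TMM-scaled log2 fold change of rescue against the mean of hypertonic and isotonic for each of the 56 tested members, grouped by class; error bars are SE and filled points have an adjusted p under 0.05 (edgeR). Most core histone members lie below 0, down to -1.97 for HIST1H2BJ, and the members that rose include HIST1H4D at 4.33.

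Among the H2A genes, which encode the partner of H2B in the nucleosome's outer dimers, HIST1H2AG read 125 and 116 CPM in rescue, 250 and 360 CPM in hypertonic, and 361 and 243 CPM in isotonic libraries. Both rescue libraries lay below all others, with a log2 fold change of -1.62 ± 0.20 (SE; adjusted p = 0.00829, edgeR). HIST1H2AH read 58.7 and 54.4 CPM in rescue, 140 and 195 CPM in hypertonic, and 199 and 133 CPM in isotonic libraries. Its rescue libraries were again the lowest, with a log2 fold change of -1.85 ± 0.19 (adjusted p = 0.00631, edgeR). HIST2H2AC read 40.9 and 40.2 CPM in rescue, 87.2 and 113 CPM in hypertonic, and 116 and 84.6 CPM in isotonic libraries, with no overlap and a log2 fold change of -1.60 ± 0.15 (adjusted p = 0.00528, edgeR). HIST1H2AD had a log2 fold change of -1.56 ± 0.37 (adjusted p = 0.0371, edgeR), and its row overlaps that of AL031777.3, so that their reads may not be separable. HIST1H2AB also fell, just inside the threshold, with a log2 fold change of -1.48 ± 0.39 (adjusted p = 0.04997, edgeR).

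HIST2H2AA4, whose stem-loop is shown above, read 160 and 147 CPM in rescue, 274 and 416 CPM in hypertonic, and 422 and 263 CPM in isotonic libraries, below all others in rescue, with a log2 fold change of -1.44 ± 0.23 (adjusted p = 0.0150, edgeR). Its duplicate HIST2H2AA3 shares an identical run of 549 bases with it, and the ratio of counts between the copies stayed between 19.5 and 25.7 in the 6 libraries. HIST2H3A and HIST2H3C, identical over 1656 bases, had ratios between 17.1 and 24.2, and HIST2H4A and HIST2H4B, identical over 1547 bases, between 69.0 and 101. How reads were shared out between such copies is not given in the sources used here, so the members of each pair are not separate observations. All 3 pairs had log2 fold changes below 0, from -0.61 for HIST2H4B, which did not pass the test, to -1.44.

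HIST1H2AC had another pattern. It read 190 and 182 CPM in rescue, 58.5 and 157 CPM in hypertonic, and 162 and 55.6 CPM in isotonic libraries. Its rescue libraries were the highest by library total, but TMM-scaled they stood at 166 and 158 CPM, against 66.1 and 161 CPM in hypertonic and 164 and 62.6 CPM in isotonic libraries, and so overlapped with hypertonic 2 and isotonic 1. The log2 fold change was 0.51 ± 0.53 (adjusted p = 0.505, edgeR). HIST1H2AE, a scarce member, read 1.01 and 0.794 CPM in rescue, 0.118 and 0.106 CPM in hypertonic, and 0.161 and 0.144 CPM in isotonic libraries, and rose with a log2 fold change of 2.47 ± 0.33 (adjusted p = 0.00960, edgeR).

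Among the H2B genes, HIST1H2BJ fell most. It read 82.7 and 78.0 CPM in rescue, 219 and 308 CPM in hypertonic, and 300 and 209 CPM in isotonic libraries. Every rescue value was below every other, with a log2 fold change of -1.97 ± 0.18 (adjusted p = 0.00536, edgeR), equal to 3.93-fold lower. HIST1H2BK, the H2B gene with the highest mean CPM (not per length), read 194 and 184 CPM in rescue, 268 and 428 CPM in hypertonic, and 431 and 263 CPM in isotonic libraries, with a log2 fold change of -1.16 ± 0.25 (adjusted p = 0.0294, edgeR). HIST1H2BD read 224 and 210 CPM in rescue, 279 and 252 CPM in hypertonic, and 252 and 271 CPM in isotonic libraries, a smaller fall with a log2 fold change of -0.58 ± 0.14 (adjusted p = 0.0391, edgeR). It was the evenest of these 3 over the hypertonic and isotonic libraries and its gene span is 13204 bases.

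HIST1H2BE went the other way. It read 44.8 and 43.7 CPM in rescue, 5.28 and 5.38 CPM in hypertonic, and 6.30 and 6.14 CPM in isotonic libraries, so that the 4 other libraries were close to each other and rescue stood apart. The log2 fold change was 2.64 ± 0.12 (adjusted p = 0.00332, edgeR), equal to 6.24-fold higher. It was the only member above 5 CPM to rise. Its row covers 12597 bases on the plus strand of chromosome 6, from 26172059 to 26184655, and begins well upstream of the promoter window shown above, next to the end of HIST1H2BD; which part of the span held the reads was not analysed here. HIST1H2BG read 1.17 and 1.37 CPM in rescue, 0.247 and 0.280 CPM in hypertonic, and 0.228 and 0.188 CPM in isotonic libraries, and rose with a log2 fold change of 2.14 ± 0.29 (adjusted p = 0.00954, edgeR). HIST1H2BB read 3.29 and 2.73 CPM in rescue, 0.0197 and 0.367 CPM in hypertonic, and 0.361 and 0 CPM in isotonic libraries; rescue was highest, but the spread among the others left its adjusted p at 0.131 (edgeR).

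Among the H3 genes, HIST1H3B read 128 and 120 CPM in rescue, 227 and 390 CPM in hypertonic, and 395 and 221 CPM in isotonic libraries. Rescue lay below all others, with a log2 fold change of -1.60 ± 0.30 (adjusted p = 0.0217, edgeR). HIST2H3A read 130 and 122 CPM in rescue, 243 and 319 CPM in hypertonic, and 316 and 233 CPM in isotonic libraries, with a log2 fold change of -1.43 ± 0.14 (adjusted p = 0.00583, edgeR). HIST1H3D read 44.4 and 38.3 CPM in rescue, 101 and 124 CPM in hypertonic, and 130 and 95.4 CPM in isotonic libraries, with a log2 fold change of -1.74 ± 0.15 (adjusted p = 0.00508, edgeR); its row too overlaps that of AL031777.3. In both genes the groups did not overlap. HIST1H3A fell with a log2 fold change of -1.94 ± 0.41 (adjusted p = 0.0284, edgeR). The scarce HIST1H3C read 1.00 and 0.728 CPM in rescue, 0.0493 and 0.0386 CPM in hypertonic, and 0.114 and 0.0443 CPM in isotonic libraries (adjusted p = 0.00979, edgeR). It passed the filter on low counts only through its rescue libraries, so nothing is read from this call. HIST1H3E, whose loop letters differ from those of HIST2H3A, read 12.7 and 13.0 CPM in rescue, 2.03 and 9.54 CPM in hypertonic, and 9.46 and 2.03 CPM in isotonic libraries, and did not pass the test (adjusted p = 0.440, edgeR).

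Among the H4 genes, HIST1H4B read 57.4 and 53.6 CPM in rescue, 108 and 175 CPM in hypertonic, and 174 and 102 CPM in isotonic libraries. Rescue was below all others, with a log2 fold change of -1.61 ± 0.27 (adjusted p = 0.0166, edgeR). HIST2H4A, the H4 gene with the highest mean CPM, read 207 and 194 CPM in rescue, 270 and 362 CPM in hypertonic, and 350 and 263 CPM in isotonic libraries, with a log2 fold change of -0.92 ± 0.14 (adjusted p = 0.0130, edgeR). HIST1H4A had a log2 fold change of -1.95 ± 0.48 (adjusted p = 0.0410, edgeR). HIST1H4C read 58.9 and 55.3 CPM in rescue, 68.8 and 77.1 CPM in hypertonic, and 78.0 and 69.6 CPM in isotonic libraries, a smaller but even fall (log2 fold change -0.66 ± 0.09; adjusted p = 0.01005, edgeR).

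Other H4 genes did not pass. HIST1H4E read 112 and 108 CPM in rescue, 83.8 and 250 CPM in hypertonic, and 247 and 80.3 CPM in isotonic libraries, so rescue lay inside the range of each group by library total (adjusted p = 0.344, edgeR). HIST1H4K read 93.4 and 94.9 CPM in rescue, 101 and 200 CPM in hypertonic, and 193 and 96.1 CPM in isotonic libraries, just below all others (adjusted p = 0.124, edgeR). HIST4H4, alone on chromosome 12, read 22.8 and 20.9 CPM in rescue, 11.3 and 19.8 CPM in hypertonic, and 19.8 and 11.8 CPM in isotonic libraries (log2 fold change 0.20 ± 0.28; adjusted p = 0.624, edgeR). HIST1H4D showed the largest rise among members with at least 1 CPM in a group, at 2.38 and 2.35 CPM in rescue, 0.0394 and 0.116 CPM in hypertonic, and 0.171 and 0.0665 CPM in isotonic libraries, with a log2 fold change of 4.33 ± 0.54 (adjusted p = 0.00872, edgeR).

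**Figure D3:**
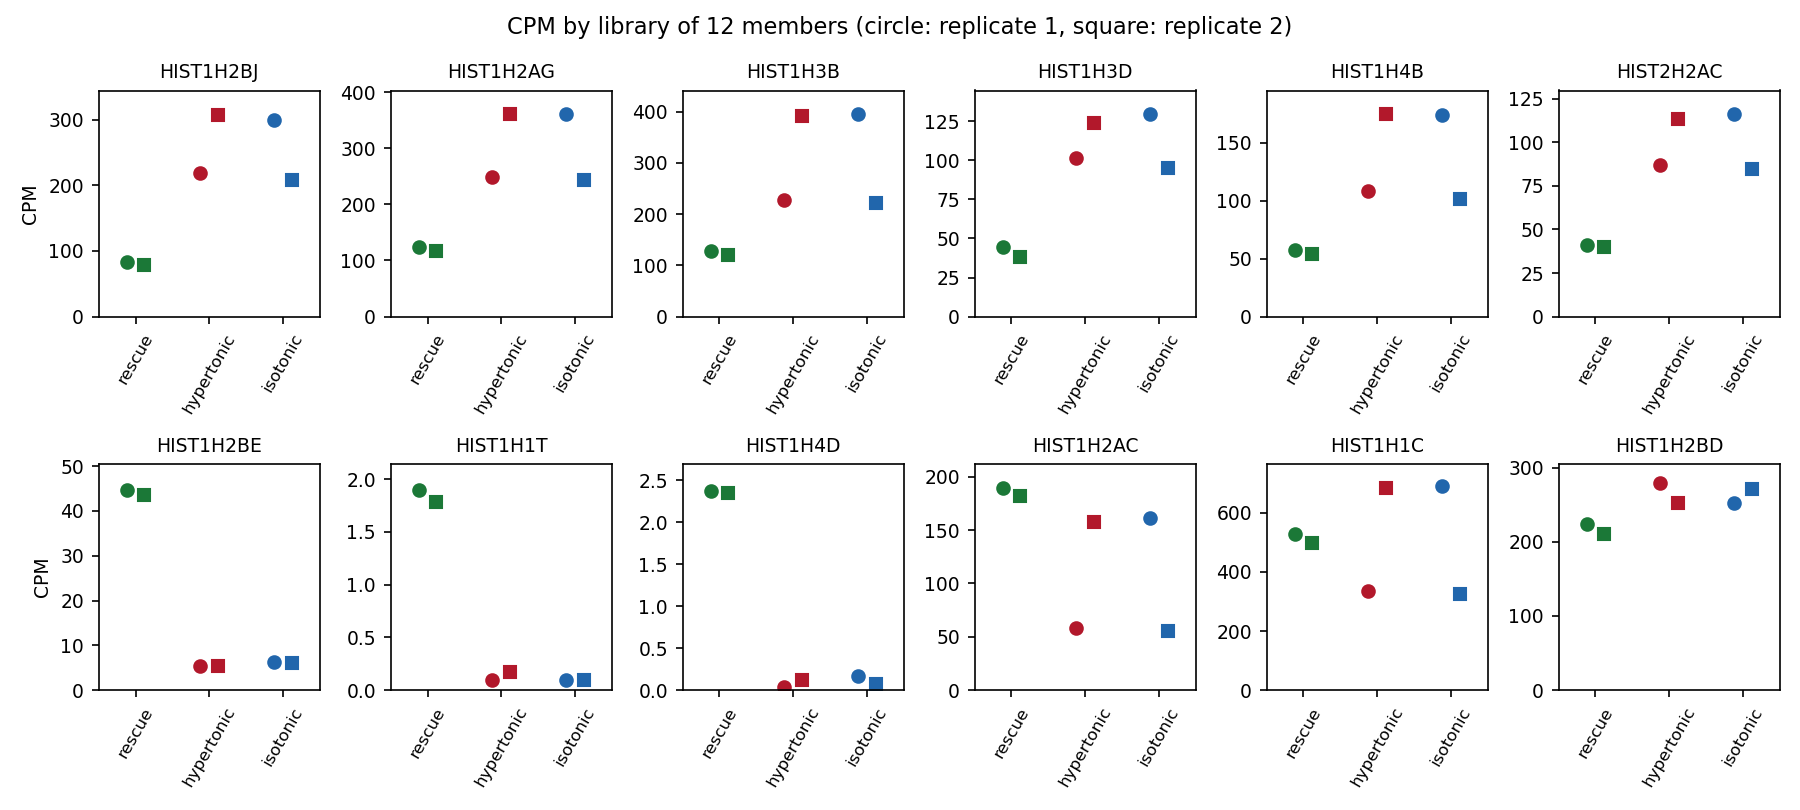
CPM by library total of 12 members, with rescue in green, hypertonic in red and isotonic in blue; circles are replicate 1 and squares replicate 2, and each axis starts at 0. In the upper row rescue is lowest in every panel; in HIST1H2BE, HIST1H1T and HIST1H4D it is highest; and the hypertonic square matches the isotonic circle in most panels, as in HIST1H1C at 686 and 691 CPM.

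The H1 genes, which encode the linker histones, had 5 tested members, of which none fell and 2 rose. HIST1H1C read 528 and 499 CPM in rescue, 335 and 686 CPM in hypertonic, and 691 and 326 CPM in isotonic libraries, with rescue between the libraries of each other group (log2 fold change -0.26 ± 0.38; adjusted p = 0.637, edgeR). HIST1H1E read 399 and 382 CPM in rescue, 338 and 537 CPM in hypertonic, and 537 and 319 CPM in isotonic libraries, in between by library total. TMM-scaled, it stood at 349 and 332 CPM in rescue, 382 and 548 CPM in hypertonic, and 544 and 359 CPM in isotonic libraries, with rescue below all others, and it did not pass the test (log2 fold change -0.43 ± 0.25; adjusted p = 0.250, edgeR). HIST1H1A read 44.2 and 41.7 CPM in rescue, 63.4 and 185 CPM in hypertonic, and 186 and 63.1 CPM in isotonic libraries. Rescue was lowest there, but the spread within the other groups left an adjusted p of 0.0931 (edgeR). HIST1H1T, the testis linker histone, read 1.90 and 1.78 CPM in rescue, 0.0986 and 0.174 CPM in hypertonic, and 0.0949 and 0.0998 CPM in isotonic libraries, and rose with a log2 fold change of 3.69 ± 0.34 (adjusted p = 0.00509, edgeR). HIST1H1D had 29 and 30 counts in rescue, 0 and 1 in hypertonic, and 0 and 2 in isotonic libraries (adjusted p = 0.0289, edgeR). It was tested only because of its rescue counts, so nothing is read from this call. HIST1H1B had 3 and 11 counts in rescue, 2 and 0 in hypertonic, and 2 and 4 in isotonic libraries and was not tested.

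Many scarce members lay side by side, while others, such as HIST1H1T and HIST1H4D, lay among abundant ones. In HIST1, 7 neighbours from HIST1H1D to HIST1H2BI, at chr6:26234268-26273356 with no other counted row between them, each stayed at or below 0.326 CPM in all libraries, and 7 from HIST1H2AL to HIST1H2BO, at chr6:27865355-27893843, at or below 0.332 CPM. The members on either side of the first stretch, HIST1H3E and HIST1H4H, reached 13.0 and 152 CPM. The HIST3 genes on chromosome 1 had hardly any counts as well. HIST3H3 had at most 6 counts in any library, HIST3H2BB at most 2, and HIST3H2A had 0 counts in each, as did HIST1H4G. At these depths a count of 0 allows a level of up to 0.0283 to 0.0333 CPM per library, for counting error only. The handling of reads that match several genes is not given, so few counts need not mean a low level. HIST1H2AA and HIST1H2BA, known as testis histone genes, had at most 2 and 10 counts.

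**Figure D4:**
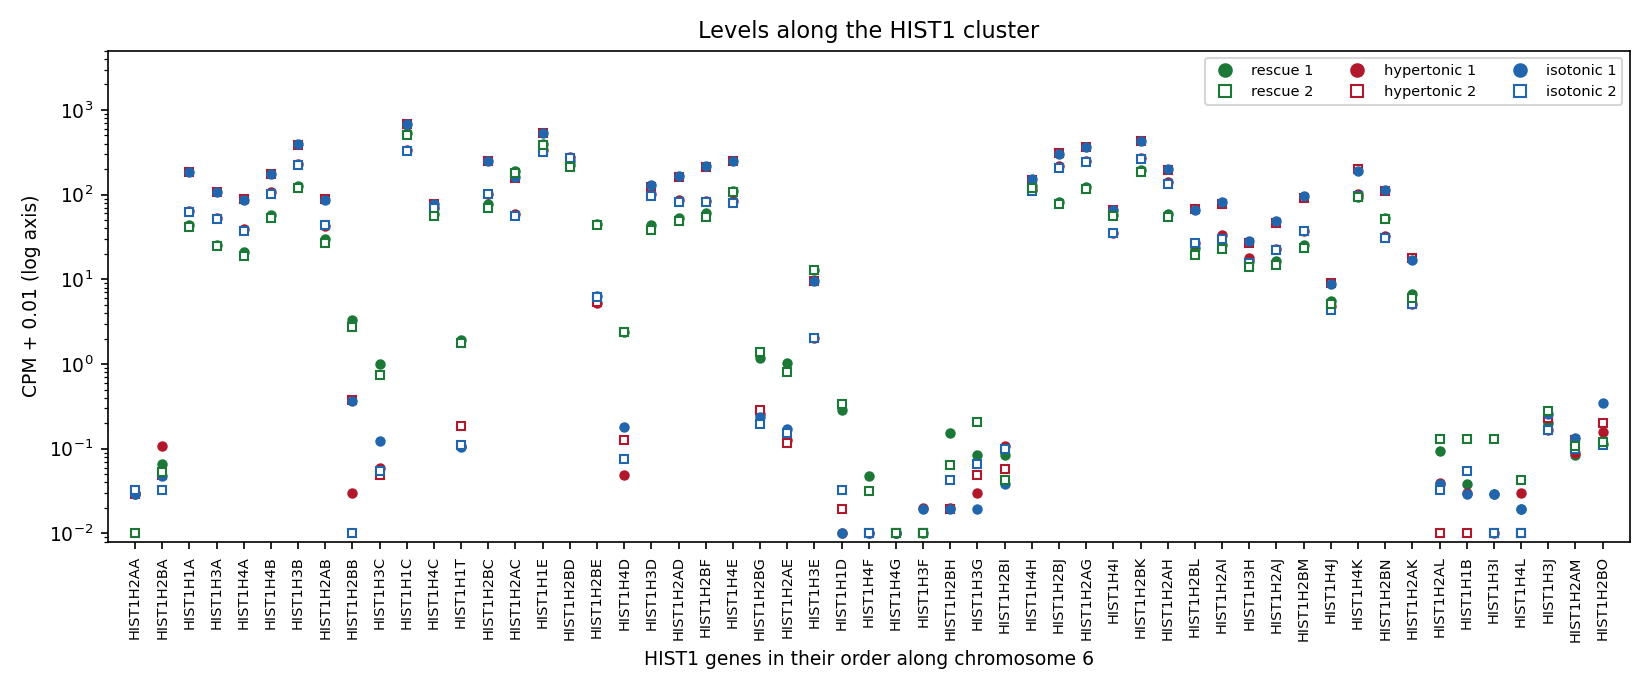
CPM plus 0.01 on a log axis for the 55 HIST1 genes, in their order along chromosome 6, with rescue in green, hypertonic in red and isotonic in blue (filled circles replicate 1, open squares replicate 2). Stretches of 7 neighbours from HIST1H1D and from HIST1H2AL stay below 1 CPM in every library, and rescue is highest at scarce genes such as HIST1H4D and HIST1H1T.

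Many H2A and H2B genes lie head to head over a shared stretch of promoter, and 9 such pairs had both genes tested. HIST1H2AG and HIST1H2BJ, 291 bases apart and with the HIST1H2BJ promoter shown above between them, both fell, as did HIST1H2AH and HIST1H2BK, 330 bases apart. HIST1H2AE and HIST1H2BG, 282 bases apart, both rose, but both are below 5 CPM, where 27.8% of all genes rose. In a further 5 pairs both log2 fold changes were below 0 with at most 1 gene past the test. The pair HIST1H2AC and HIST1H2BC, 218 bases apart, had opposite signs. HIST1H2BC read 76.7 and 70.1 CPM in rescue, 101 and 250 CPM in hypertonic, and 249 and 103 CPM in isotonic libraries, with rescue lowest and a log2 fold change of -1.53 ± 0.50 (adjusted p = 0.0839, edgeR), where HIST1H2AC had 0.51. Neither passed the test, and the difference between them was not tested. The HIST1H2AC row spans 14972 bases and that of HIST1H2BC 9054 bases, and what the reads over these spans were was not analysed here.

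**Figure D5:**
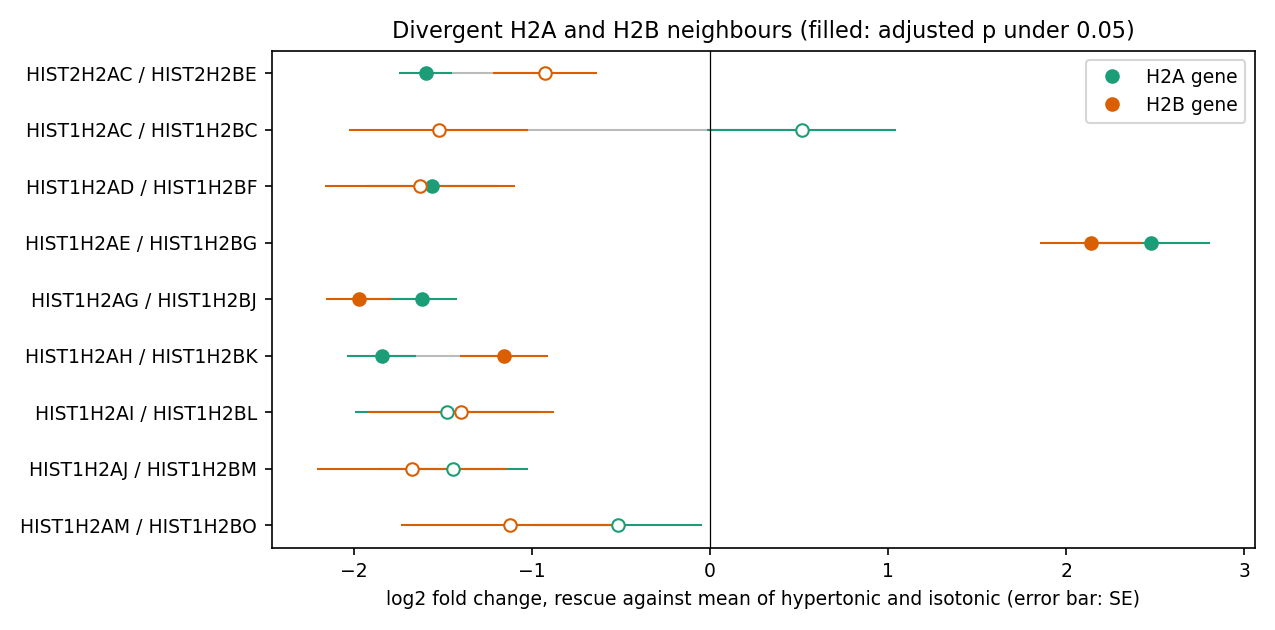
TMM-scaled log2 fold change of rescue against the mean of hypertonic and isotonic in 9 divergent pairs of neighbouring H2A (green) and H2B (orange) genes, with SE as error bars and filled points for adjusted p under 0.05 (edgeR). The pairs lie to the same side of 0 except HIST1H2AC at 0.51 and HIST1H2BC at -1.53.

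Sequence and gene structure that the choice of members did not use were set beside these folds. Among members with a mean of at least 10 CPM, the 22 with a gene span up to 1 kb had log2 fold changes from -1.95 to -0.26 with a median of -1.48, and the 17 with longer spans from -1.97 to 2.64 with a median of -0.85. The 20 with a stem-loop match had a median of -0.92 and the 19 without one -1.60. Short models tend to end at the stop codon and so to lack a match, and the 2 divisions are not independent. No test was made of these splits. The HIST2 cluster, with 12 tested members, had 6 that fell and 0 that rose, and HIST1, with 43, had 13 that fell and 7 that rose. The HIST2 falls hold both HIST2H2AA3 and HIST2H2AA4, and both HIST2H3A and HIST2H3C, copies that are not separate observations. The difference in falls between the clusters is therefore not read either. Of all genes, 17% fell and 14.6% rose. Of the 7 that rose, 6 had a mean below 5 CPM, so nothing is read from the difference in rises between the clusters.

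Hypertonic against isotonic, the comparison of the osmotic treatment itself, gave 0 members called by edgeR in either direction, where 0% of all genes were called. At an unadjusted p under 0.05 there were 0 members and 52 of all genes, and of all genes DESeq2 called 1 and limma voom 0. The median log2 fold change of members was 0.02. Within each of these groups the 2 libraries differed, in opposite ways, as the class sums show. Within replicate number 1, hypertonic was at least 2-fold lower than isotonic in 17 of 53 members and higher in 0, where 13.1% of all genes were lower and 9.74% higher. Within number 2, hypertonic was at least 2-fold higher in 20 of 53 and lower in 0, where 12.5% of all genes were higher and 10.2% lower. The medians over members were -0.80 and 0.80, against -0.16 and 0.15 over all genes.

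The 2 numbers were also tested apart, with the spread then taken from the rescue pair and each lone library assumed to vary like it. Within number 1, 41 members were lower in hypertonic and 2 higher (32.6% and 31.6% of all genes), and within number 2, 40 were higher and 3 lower (32.9% and 31% of all genes). Of these, 42 members were called in both numbers, and all 42 had opposite directions, as had 10665 of the 10673 of all genes called in both. HIST1H1A had log2 fold changes of -1.39 ± 0.09 in number 1 and 1.41 ± 0.09 in number 2 (edgeR). HIST1H2AC had -1.31 ± 0.09 and 1.36 ± 0.09, HIST1H3E had -2.06 ± 0.15 and 2.09 ± 0.15, and HIST1H2BJ had -0.30 ± 0.08 and 0.42 ± 0.08. HIST1H2BD was reversed, at 0.30 ± 0.09 and -0.25 ± 0.09, and HIST1H4C hardly moved, at -0.02 ± 0.09 and 0.01 ± 0.09. No direction for the effect of hypertonic medium on histone genes can thus be given from these labels.

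The genes that serve the histone genes were counted from lists, again as rescue against the mean of hypertonic and isotonic, where the median of all genes was -0.02. Of 9 genes of histone transcription, 2 fell and 0 rose, a share near the 17% of all genes that fell (23% of those with at least 5 CPM), with a median log2 fold change of -0.40. CCNE1, cyclin E, read 19.9 and 19.9 CPM in rescue, 99.3 and 62.5 CPM in hypertonic, and 63.1 and 103 CPM in isotonic libraries, with rescue below all others and a log2 fold change of -2.36 ± 0.40 (adjusted p = 0.0165, edgeR). CDK2, its kinase partner, fell with a log2 fold change of -0.95 ± 0.11 (adjusted p = 0.00686, edgeR). CCNE2 had -0.40 ± 0.11 (adjusted p = 0.0554, edgeR). NPAT read 97.8 and 102 CPM in rescue, 55.3 and 71.0 CPM in hypertonic, and 69.8 and 57.8 CPM in isotonic libraries, with rescue highest but no call (adjusted p = 0.0632, edgeR). CASP8AP2, a histone locus body protein also called FLASH, likewise had an adjusted p of 0.185 (edgeR).

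Of 22 genes of histone mRNA 3′ end processing, export and decay, 13 fell and 0 rose, with a median log2 fold change of -0.64. For this list and those that follow, 17% of all genes fell and 14.6% rose (23% and 9.58% of those with at least 5 CPM). CPSF2 read 30.5 and 31.2 CPM in rescue, 47.6 and 69.0 CPM in hypertonic, and 67.8 and 49.5 CPM in isotonic libraries (log2 fold change -1.21 ± 0.18; adjusted p = 0.0117, edgeR). CPSF3, the endonuclease of the cleavage complex, fell by 1.05 on the log2 scale, and NCBP1 of the nuclear cap-binding complex fell by 0.82. SLBP itself read 57.0 and 53.7 CPM in rescue, 48.8 and 44.8 CPM in hypertonic, and 45.4 and 50.3 CPM in isotonic libraries, with an adjusted p of 0.725 (edgeR). LSM11 of the U7 snRNP had an adjusted p of 0.144 (edgeR). Of 20 histone chaperones and import factors, 14 fell and 0 rose, with a median of -0.69; DAXX, which deposits an H3 variant together with ATRX, had a log2 fold change of -1.30 ± 0.33, ANP32E, which removes H2AFZ, -1.14 ± 0.11, and NASP, which binds H1, H3 and H4, -1.02 ± 0.10. Of 35 DNA replication genes, 20 fell and 0 rose, with a median of -0.60; RRM2 of ribonucleotide reductase had -1.78 ± 0.09, GINS2 of the replicative helicase -1.25 ± 0.11, and RFC2 of the clamp loader -1.18 ± 0.14. Without rescue 1 or rescue 2 no gene of any list was called.

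The histone variant genes outside the clusters mostly make polyadenylated mRNA and are expressed outside S phase too. Of 12 tested, 3 rose and 3 fell, where 14.6% of all genes rose and 17% fell, with a median of -0.16. H1F0, a linker histone of slowly dividing cells, read 1584 and 1519 CPM in rescue, 265 and 338 CPM in hypertonic, and 339 and 264 CPM in isotonic libraries. Both rescue libraries stood far above all others, with a log2 fold change of 2.07 ± 0.11 (adjusted p = 0.00332, edgeR). H1FX read 271 and 255 CPM in rescue, 98.4 and 98.4 CPM in hypertonic, and 99.2 and 93.1 CPM in isotonic libraries, also without overlap, with a log2 fold change of 1.14 ± 0.09 (adjusted p = 0.00470, edgeR). Both had hypertonic and isotonic libraries closer together than the cluster H1 genes did. H2AFX fell, with a log2 fold change of -0.81 ± 0.11 (adjusted p = 0.00913, edgeR). H2AFZ had -0.87 ± 0.27 (adjusted p = 0.0747, edgeR), and the H3 variant genes H3F3A and H3F3B had -0.08 ± 0.17 and 0.23 ± 0.17, none of them past the test.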

How the data were processed

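The deposited values are raw counts for each gene row, in a separate table for every library and without normalization. Per the submitters' processing notes, the tools included bcl2fastq, TopHat2, Bowtie2 and bedtools and the build was GRCh38. The annotation, the use of strand and the handling of multiply matching reads were not given in the sources used here. Ribosomal RNA was depleted and no poly(A) selection is named, per the labels' protocols, so mRNAs without a tail can be counted.

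The members and lists were chosen with earlier results of these data known. All 6 libraries were fitted with 1 mean per group in edgeR 4.0.16 (filterByExpr, TMM, robust quasi-likelihood, two-sided, Benjamini-Hochberg threshold of 0.05 over 18208 genes, 3 residual degrees of freedom, common dispersion 0.148). CPM is by library total. Ratios within a number used CPM plus 0.1. Total counts of 90196278 to 105991428 give little counting error above 5 CPM. Named members were, per comparison, up to 10 rises and 10 falls among members past the test with a group mean of 1 CPM or more and no overlap, the 3 highest by CPM of each class, all H1, HIST3 and HIST4 members, and a set of histone pathway genes with the 3 largest changes per list above 5 CPM; the rest were named after their values were seen. Coordinates and transcripts came from GENCODE release 29 and promoters from RefSeq. Whether equal replicate numbers in different groups are pairs was not established here. Alternatives were other scalings and filters, DESeq2 1.42.0, limma 3.58.1 voom, a replicate block and leaving out libraries. The edgeR fit was also checked on simulated counts.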

Additional observations from a re-analysis of the deposited data

Results flagged for a closer look

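The ratio of hypertonic to isotonic class sums ran opposite ways in the 2 replicate numbers, in every histone class, which is what drew attention to it. In number 1 hypertonic was lower, at 0.521 of isotonic for H1, 0.590 for H2A, 0.606 for H2B, 0.658 for H3, 0.609 for H4 and 0.594 for all members. In number 2 hypertonic was higher, at 1.99 times isotonic for H1, 1.74 for H2A, 1.69 for H2B, 1.57 for H3, 1.72 for H4 and 1.74 for all members. The difference between the numbers was not tested for the sums. The same libraries pair across the labels over all genes: 39 of 17388 genes differed at least 2-fold between hypertonic 2 and isotonic 1 and 52 between hypertonic 1 and isotonic 2, against 3925 between hypertonic 1 and 2 and 3976 between isotonic 1 and 2.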

How the results depend on the processing

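Every named call kept its direction under every alternative that tested it. All class sum ratios moved by less than 1 SD of the log2 sums within groups. That SD is wide, since the libraries within the hypertonic and isotonic groups differed. The H1 ratio changed sign within it, as given above, so this says little about how stable the ratios are. Counts of members are given here as lower or higher for rescue against isotonic, hypertonic and their mean, in that order. With library totals only, 7, 7 and 9 were lower, where 6.01%, 6.03% and 8.52% of all genes were. With genes of at least 5 CPM on average, 1, 1 and 1 were higher, where 8.42%, 8.63% and 12.4% of all genes were. Fewer scarce members were tested there. With DESeq2, 27, 28 and 30 were lower, where 20.7%, 20.8% and 23.7% of all genes were. Leaving out 1 library gave median log2 fold changes over members from -1.03 to -0.40 against isotonic and from -1.08 to -0.59 against hypertonic. Against the mean they ran from -0.99 to -0.65. Without a rescue library, no member and no other gene was called. The same held against isotonic or hypertonic without 1 library of that group. Leaving out isotonic 2 and hypertonic 2 gave 40 lower against isotonic, 15 higher and 33 lower against hypertonic, 14 higher and 40 lower against the mean, and 2 higher and 41 lower for hypertonic against isotonic. Leaving out isotonic 1 and hypertonic 1 gave medians of -0.41, -1.14, -0.70 and 0.64 over members for the same comparisons. Over all genes they were 0.02, 0.04, 0.07 and 0.

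The replicate block gave 0 higher and 0 lower against isotonic and against hypertonic, where 0% of all genes were called. Against the mean it gave 3 higher and 5 lower, where 3.25% of all genes were higher and 2.79% lower. Deviations from group means correlated at -0.905 between same-numbered hypertonic and isotonic libraries. With 2 libraries a group, the likeness across labels given above is enough to make this value negative. It cannot decide whether equal numbers are pairs. With the crossed pairing as a block, chosen after seeing the data, 0 of 54 members were called between hypertonic and isotonic, and 6 of 17329 genes were higher and 15 lower. Such a block could also absorb the treatment difference if labels were exchanged within a number, so nothing is read from these counts.

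In the lists, 1 transcription gene rose with upper quartile scaling and with DESeq2, which also called 5 lower. With both, 1 processing gene rose, and 9 chaperones and 1 variant fell with upper quartile scaling. Of all genes, 18.1% were higher and 11% lower with upper quartile scaling, and 21.5% higher and 23.7% lower with DESeq2. Leaving out 1 library gave 0 to 14 lower chaperones, 0 to 18 lower replication genes, 0 to 12 lower processing genes, 0 to 3 lower transcription genes, and 0 to 2 higher and 0 to 3 lower variants. Upper quartile scaling and library totals moved the median of all genes by 0.21 and 0.29, and the split of all calls against the mean was 3294 higher to 1995 lower and 3382 to 1551, against 2663 to 3098 with TMM. Of 42 named calls over the 3 comparisons, 12 were lost with library totals, among them those of HIST1H4A, HIST1H3A, HIST1H3B and HIST1H2AD against the mean, 6 with upper quartile scaling, 36 under the replicate block and all 42 without rescue 1 or rescue 2. The causes were not tested. Depth limits values under about 0.03 CPM.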
